A study of Mus musculus with 12 samples.

Results

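The genes described here are 41 genes of DNA damage signalling and repair, out of 20308 genes in the table. They were chosen by name, with earlier results of these data known. The RNA came from urogenital sinus epithelium, freed from stroma with trypsin, of C57BL/6J mice at embryonic day 15.5. The sinus gives rise to bladder neck, urethra and prostate. The 4 Control libraries came from wildtype embryos. The 8 Dnmt1cKO libraries came from embryos whose Dnmt1 had been deleted in that epithelium by a Shh cre driver, and neither group had any other treatment. Tissue of several embryos was pooled in each lysate. The labels do not say which libraries came from separate pools, so the p-values cover only how far these libraries scatter, which may be technical.

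Cells detect broken or stalled DNA through the kinases ATM and ATR, which act on the checkpoint kinases CHK1 and CHK2 to hold the cell cycle. Separate routes then mend each kind of lesion: homologous recombination and end joining for breaks of both strands, mismatch repair for copying errors, nucleotide excision repair for bulky adducts, and base excision repair for damaged bases and nicks. DNMT1 copies methylation marks at CpG sites onto newly made DNA, and in proliferating cells its loss is known to be followed by DNA damage signalling. The comparison asked whether the transcripts of this machinery differed once Dnmt1 was deleted.

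Because DNMT1 acts on CpG dinucleotides, the CpG content of the members' promoters was described first. RefSeq windows on GRCm38.p6, from 250 bases before to 50 after a transcription start, were matched by symbol to 33 members, of which 4 had 2 starts. The 37 windows held a median of 21 CpG dinucleotides (range 3 to 37), against 20 in the 12384 windows of genes tested and 7 in all 32851 windows of the table. A GC share of at least 55% with an observed to expected CpG ratio of at least 0.6 was met by 24 of the 37 windows (64.9%), by 59.1% of the windows of genes tested and by 30.3% of all windows. Most members thus have promoters rich in CpG, as do most genes expressed in this tissue. The windows richest in CpG belonged to Msh6 (37) and to Apex1 and Xrcc4 (31 each). The poorest were an internal window of Mgmt (3), an internal window of Polk (4) and the window of Xrcc1 (7). Mgmt and Polk each also had an outer window, with 20 and 25 CpG dinucleotides. The windows of Rrm2b, Nbn, Ercc3, Ddb2, Xpc, Rad50, Fancd2 and Xrcc2 were not used here. Methylation itself was not measured in this series.

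**Figure D1:**
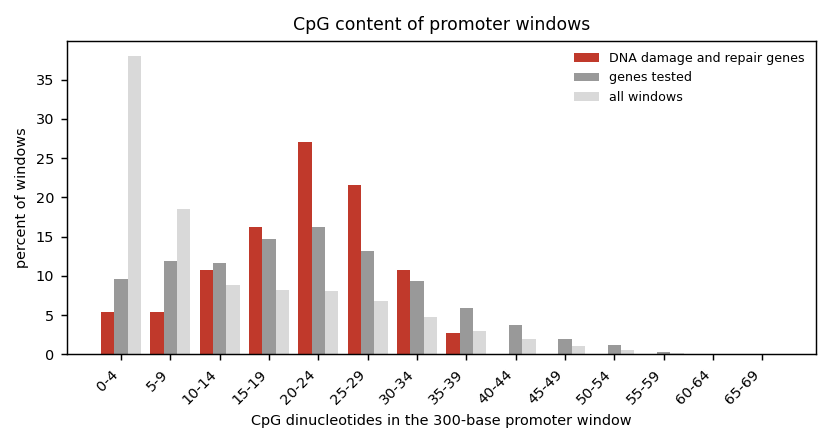
Share of promoter windows (y axis, percent) by the number of CpG dinucleotides in 300 bases (x axis) for the 37 windows of the members, the 12384 windows of genes tested and all 32851 windows. Windows with 0 to 4 CpG made up 5.41% of the members' windows and 38.0% of all windows.

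The 250 bases before the start are shown for the pair of Mgmt windows, 1 of them the poorest in CpG of the members' windows, and for an internal Lig4 window, chosen after its values were seen because Lig4 was the one member whose groups did not overlap. MGMT strips methyl groups from guanine, and silencing of its gene by promoter methylation is well known in tumours. Every CpG is in capitals. None of the printed bases lies in an annotated exon.
Mgmt, chr7:136894336-136894585, plus strand: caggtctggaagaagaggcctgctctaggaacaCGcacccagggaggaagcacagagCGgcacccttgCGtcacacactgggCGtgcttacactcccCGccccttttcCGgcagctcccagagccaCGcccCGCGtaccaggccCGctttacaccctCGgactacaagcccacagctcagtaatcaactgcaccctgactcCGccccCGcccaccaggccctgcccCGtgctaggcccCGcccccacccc
Mgmt, chr7:136912848-136913097, plus strand: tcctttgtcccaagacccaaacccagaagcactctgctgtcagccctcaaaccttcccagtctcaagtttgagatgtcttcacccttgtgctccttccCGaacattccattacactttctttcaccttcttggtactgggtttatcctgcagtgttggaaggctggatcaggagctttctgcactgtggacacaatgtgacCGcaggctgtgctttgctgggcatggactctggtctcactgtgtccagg
Lig4, chr8:9976312-9976561, minus strand: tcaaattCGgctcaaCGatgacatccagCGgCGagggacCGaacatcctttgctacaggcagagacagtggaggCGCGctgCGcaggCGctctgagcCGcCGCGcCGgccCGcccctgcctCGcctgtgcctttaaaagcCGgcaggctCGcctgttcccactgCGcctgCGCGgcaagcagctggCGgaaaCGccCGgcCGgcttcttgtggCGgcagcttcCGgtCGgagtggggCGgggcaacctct
The printed part of the outer Mgmt window held 15 CpG dinucleotides, that of the inner one 2, and that of the Lig4 window 28.

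Depth differed widely between libraries, most of all among the Controls. The total of expected counts was 7577706, 2915193 and 1613514 in Controls 1 to 3. It was 543591 for the library labelled Control 4 and 4007533 to 11970907 in Dnmt1cKO. The members together took 0.181% to 0.284% of the counts in Control and 0.218% to 0.331% in Dnmt1cKO. Dnmt1 itself stood at 164 CPM (counts scaled to a common library size) in Control 1, 114 in Control 2 and 237 in Control 3. These values lay above all Dnmt1cKO libraries (22.8 to 97.0 CPM). The library labelled Control 4 had 1 Dnmt1 count, 2.84 CPM, below all Dnmt1cKO libraries and against its label. There 20.4% of genes predicted at 20 counts or more from Control 1 had 0 or 1 count. This value alone thus cannot settle the genotype. With all Controls, the Dnmt1 log2 fold change (Dnmt1cKO against Control) was -1.29 ± 0.63 (SE, edgeR adjusted p = 0.284), not under 0.05. Epcam, Cdh1 and Krt8, markers of urogenital sinus epithelium, were present in every library. The summed level over the 14 genes of that list was 4137 to 38706 CPM in Control and 7042 to 12498 CPM in Dnmt1cKO. Other genes of the list were low in Control 3. Grhl2 was at 0 there, Trp63 and Foxa1 at 2.26 CPM, Shh at 3.77 CPM and Krt19 at 11.3 CPM. Krt15 was at 267 CPM in Control 3, against 4896 to 11032 CPM in the other Controls. The summed level of 14 stromal markers was 1328 to 11723 CPM in Control and 358 to 7069 CPM in Dnmt1cKO, highest in Control 3. The summed level of 25 proliferation genes was 489 CPM in the library labelled Control 4, 2595 to 3731 CPM in the other Controls and 3129 to 4378 CPM in Dnmt1cKO. The 3731 CPM was that of Control 3, where Top2a (1398 CPM) and Mki67 (803 CPM) were the largest values. In the same library Bub1, Aurkb, Cdc6 and Cdt1 were at 0. Summed levels ran from 429 to 5799 CPM in Control and 10.5 to 1540 CPM in Dnmt1cKO for 7 erythroid markers, from 2.84 to 112 and 16.8 to 89.3 CPM for 8 immune markers, from 8.53 to 160 and 4.90 to 72.2 CPM for 7 endothelial markers, and from 37.0 to 773 and 14.4 to 736 CPM for 8 neural and glial markers. In each of the 7 lists 0 markers passed in edgeR, where 2.59% of all genes tested passed. Only the proliferation and epithelial lists were tested in full, and each other list lost at least 1 marker to the filter on low counts. With lists this short and Controls this uneven, the absence of calls does not show that the groups matched in cell make-up. In bulk RNA, fewer cells of a type and less RNA per cell cannot be told apart, and the part of these differences in the results was not tested.

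Most members were well detected in the deeper libraries and many were empty in the shallow ones. All 41 had at least 1 count in Control 1, in Dnmt1cKO 1, 3, 6 and 8, while 6, 10 and 23 were at 0 in Control 2, Control 3 and the library labelled Control 4, and 8 in Dnmt1cKO 2. Some of these low counts lay far below what depth predicts. Brca1, which helps to prepare broken ends for recombination, gave 327 counts in Control 1, a level that predicts 119 counts at the depth of Control 2, where 1 was found, and 53.3 in Control 3, where 270 were found. Xrcc5, whose product is a subunit of the Ku complex that caps broken ends, gave 538 counts in Control 1, and 0 in Control 3 where 87.7 were predicted. Of the members for which the level of Control 1 predicted at least 20 counts, 8 of 35 had 0 or 1 count in Control 2, 7 of 31 in Control 3 and 3 of 11 in the library labelled Control 4, that is 22.9%, 22.6% and 27.3%. The same shares over all genes tested were 11.6%, 23.1% and 20.4%. In Dnmt1cKO 2 it was 17.9% of members and 19.0% of genes, and in the other Dnmt1cKO libraries 0% to 5.41% of members and 1.11% to 5.05% of genes. In Control 2, Control 3, the library labelled Control 4 and Dnmt1cKO 2, single members could thus be missing where depth predicts 20 counts or more.

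**Figure D2:**
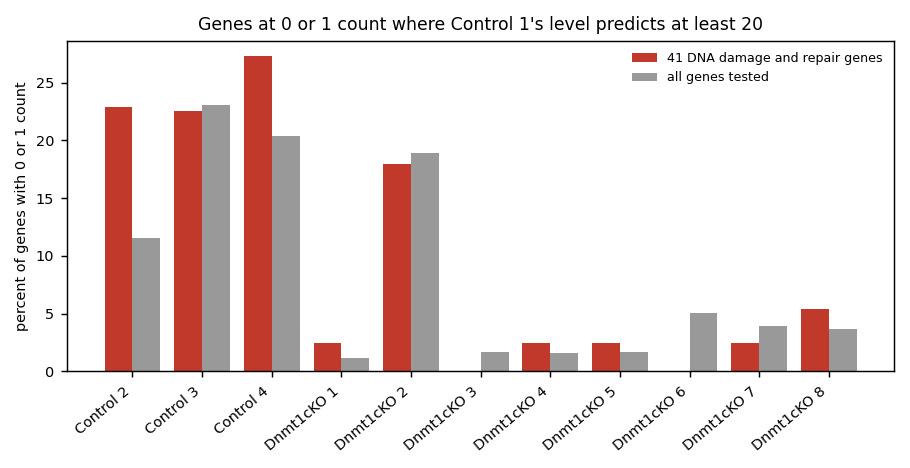
Percent of genes with 0 or 1 count (y axis) in each library other than Control 1 (x axis), among genes for which the level in Control 1 predicts at least 20 counts at that library's depth, for the members (red bars) and all genes tested (grey bars). Control 2, Control 3, the library labelled Control 4 and Dnmt1cKO 2 had 17.9% to 27.3% of members near empty, and the other libraries at most 5.41%.

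No member of the machinery was called. All 41 passed the filter on low counts, and 0 had an adjusted p under 0.05 in edgeR's quasi-likelihood test (Benjamini-Hochberg over 12761 genes), where 2.59% of all genes tested were called (1.03% higher and 1.55% lower). Before adjustment, with p under 0.05, Lig4, Parp1 and Rrm2b were higher in Dnmt1cKO and Xrcc1 and Parp2 lower, 3 and 2 of 41, against 8.19% and 9.54% of all genes. DESeq2 called Lig4 higher and Xrcc1 and Parp2 lower, where it called 12.2% of all genes, and RLE factors in edgeR called Xrcc1 and Parp2, where they called 7.02%. By limma-voom with quality weights 0 members passed, where 0.306% of all genes did. The members' median log2 fold change (Dnmt1cKO against Control) was 0.17, beside 0.22 for all genes tested, and 25 of 41 (61.0%) were above 0, beside 57.3% of all genes. These shares were near the background of the whole table. The log2 fold changes ran from -2.26 for Xrcc1 to 3.24 for Lig4, with a median standard error of 0.88. The sign turned for 2, 4 and 10 members without Control 1, 2 and 3 respectively, and for 7 without the library labelled Control 4.

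The missed threshold does not show equal levels. The 95% interval of the fold change lay within 4-fold in either direction for 12 of the 41 members and within 2-fold for 2 of them, Ddb1 and Msh6. For the other 29 a 4-fold difference in at least 1 direction lay inside the interval.

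**Figure D3:**
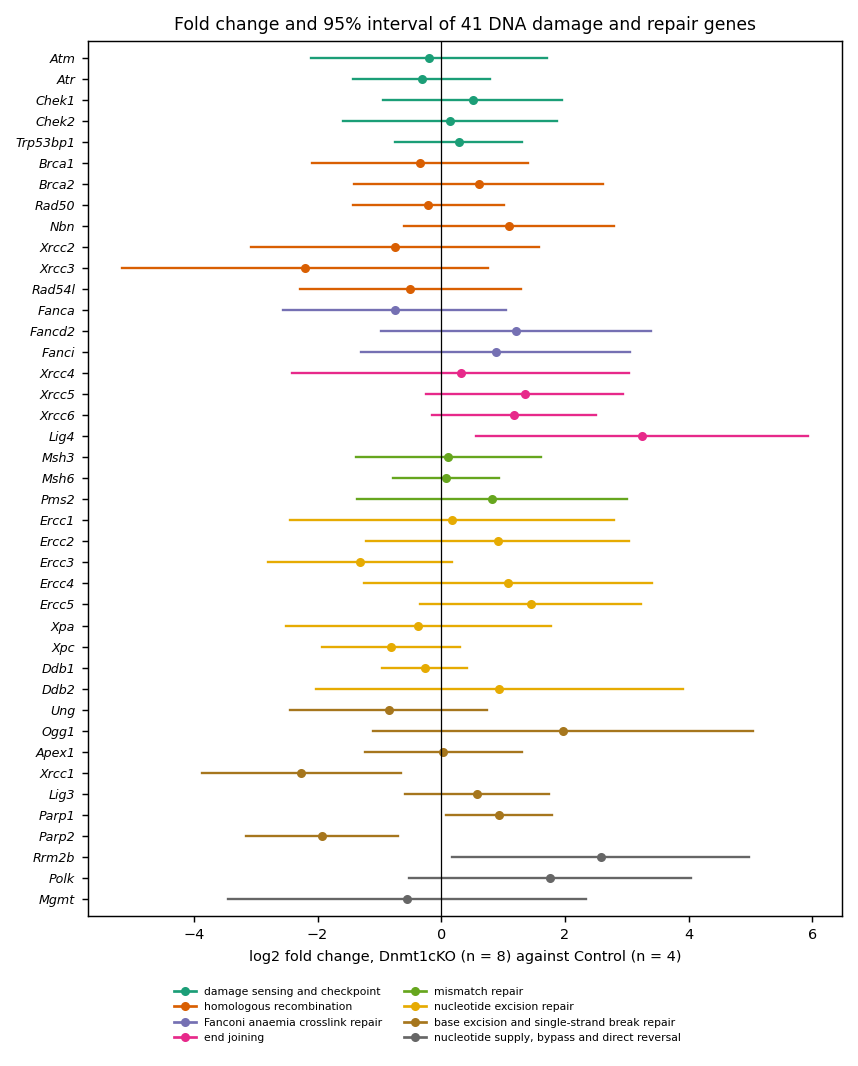
Log2 fold change of Dnmt1cKO (n = 8) against Control (n = 4) for each of the 41 members (x axis), with points for the fitted value and lines for its 95% interval, coloured by role. The intervals of Lig4, Rrm2b and Parp1 lie above 0 and those of Xrcc1 and Parp2 below 0, and none of these genes had an adjusted p under 0.05.

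Among damage sensors and checkpoint kinases the groups did not separate. Trp53bp1, whose product gathers at breaks and favours end joining, had the highest mean CPM of the group (not scaled by length). It stood at 141, 89.7, 179 and 25.6 CPM in Controls 1 to 4, and at 109, 132 and 159 CPM (lowest, median, highest) in Dnmt1cKO. Both the highest and the lowest of the 12 libraries were Controls. Its log2 fold change was 0.28 ± 0.51 (SE; edgeR adjusted p = 0.822), with a 95% interval of -0.75 to 1.31. Chek1, which encodes the kinase downstream of ATR, had the smallest p of the group. It stood at 80.7, 86.7, 5.28 and 5.69 CPM in Control and at 32.7, 60.7 and 105 CPM in Dnmt1cKO. Controls 1 and 2 thus lay inside the Dnmt1cKO range and the other Controls below it. The log2 fold change of 0.51 ± 0.71 had an edgeR adjusted p of 0.762, and it was -0.31 without Control 3 and the library labelled Control 4. Atm, the kinase that answers broken ends, showed how far single Controls strayed: 33.8, 0.337, 198 and 0 CPM, against 4.28 to 85.2 CPM in Dnmt1cKO. For this gene the log2 fold change was -0.19 and turned to 2.004 without Control 3. That of Atr was -0.32, or 0.26 without the library labelled Control 4. That of Chek2 was 0.14, or 1.33 without Control 1 and -0.12 without Control 3.

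Of the 7 genes of homologous recombination, 5 had a log2 fold change below 0 and 2 above (28.6%, beside 57.3% of all genes tested). In edgeR 0 passed, with 0 at an unadjusted p under 0.05. Without Control 3 the count turned to 5 above and 2 below, with Brca1, Rad50 and Rad54l changing sign. Rad50, part of the complex that holds broken ends together, had the highest mean CPM of them (not scaled by length). It stood at 112, 74.9, 234 and 2.84 CPM in Control and at 65.3, 95.9 and 106 CPM in Dnmt1cKO. The Dnmt1cKO libraries lay close together, between the extremes of Control. The fitted log2 fold change was -0.21 ± 0.60 (edgeR adjusted p = 0.895). Xrcc3, whose product acts in the repair of breaks by strand exchange, had the smallest p of this group, and stood at 6.15, 18.2, 0.754 and 0 CPM in Control. In Dnmt1cKO it was at 0, 0.692 and 3.68 CPM, with 3 libraries at 0. Controls 1 and 2 were thus above every Dnmt1cKO library and the other Controls inside their range. The log2 fold change of -2.20 ± 1.45 had an edgeR adjusted p of 0.462 and a 95% interval of -5.16 to 0.76. Brca1 and Brca2 had log2 fold changes of -0.35 and 0.60. Without Control 3, where they stood at 204 and 41.5 CPM, the values were 1.70 and 1.98. Nbn, partner of Rad50, had 1.10. Xrcc2 had -0.74, or 0.51 without Control 2, and Rad54l, a motor that remodels the paired strands, had -0.50, or 1.18 without Control 3.

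The Fanconi anaemia genes, which free DNA of crosslinks between strands, split in direction. Fancd2, which together with Fanci forms the clamp that marks the lesion, stood at 3.69, 24.6, 0 and 2.84 CPM in Control and at 9.43, 14.8 and 45.9 CPM in Dnmt1cKO. Control 2 lay inside the Dnmt1cKO range and the other Controls below it. Its log2 fold change was 1.203 ± 1.08 (edgeR adjusted p = 0.604), and that of Fanci 0.88. Without Control 2, the highest Control for both, they were 3.07 and 3.11. Fanca, of the core complex that modifies this clamp, stood at 31.6, 19.6, 85.2 and 0 CPM in Control, and at 7.84, 14.5 and 71.6 CPM in Dnmt1cKO. The highest Dnmt1cKO value was that of Dnmt1cKO 2 and the next was 19.7 CPM. The log2 fold change of Fanca was -0.75 ± 0.89 (edgeR adjusted p = 0.712), or 0.19 without Control 3.

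The end joining genes had log2 fold changes above 0 in 4 of 4 cases, beside 57.3% of all genes tested, and 0 passed in edgeR. This route rejoins broken ends directly: Ku, made by Xrcc5 and Xrcc6, caps the end, and the ligase of Lig4 with its scaffold Xrcc4 seals it. Lig4 (chromosome 8, 9969049 to 9977686, minus strand), whose internal promoter window is shown above, gave 39 counts in Control 1, 4.79 CPM, and 0 in the other 3 Controls. In Dnmt1cKO it stood at 17.0, 8.08, 19.1, 16.9, 17.98, 15.1, 11.5 and 10.3 CPM. Every Dnmt1cKO library lay above every Control, a pattern found for 1 of 41 members and 2.59% of all genes tested, while 0 members and 0.486% of genes were wholly below. The mean was 14.5 ± 4.04 CPM (SD, n = 8) against 1.199 ± 2.40 CPM (SD, n = 4), and the log2 fold change was 3.24 ± 1.32 (edgeR adjusted p = 0.183, 95% interval 0.56 to 5.93). At the level of Control 1 the counts predicted in Controls 2 to 4 were 14.2, 6.36 and 1.69, so its zeros in Control 3 and the library labelled Control 4 were zeros of few expected counts. Without Control 1, the only Control with counts, edgeR called Lig4 (adjusted p = 0.0152), where 8.75% of all genes were called. The remaining Controls are then all at 0, so no fold change can be read from that fit.

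Xrcc5 had the highest mean CPM of the end joining genes and stood at 66.1, 79.2, 0 and 2.84 CPM in Control. In Dnmt1cKO it was at 40.6, 92.5 and 180 CPM, so Controls 1 and 2 lay inside the Dnmt1cKO range. The fitted log2 fold change was 1.35 ± 0.79 (edgeR adjusted p = 0.387), and 0.48 without Control 3 and the library labelled Control 4. Xrcc6, the other Ku subunit, stood at 57.9, 54.6, 28.6 and 5.69 CPM in Control and at 56.8, 74.9 and 177 CPM in Dnmt1cKO. Only Control 1 reached the Dnmt1cKO range. For this gene the log2 fold change was 1.17 ± 0.65 (edgeR adjusted p = 0.363). Xrcc4 was arranged otherwise, with 24.0 CPM in Control 1, above all Dnmt1cKO libraries (0 to 17.1 CPM), and 0 in the other Controls (log2 fold change 0.31, or -0.10 without Control 3 and -0.11 without Control 2). Without Control 1 the remaining Controls are all at 0 for Xrcc4, and edgeR did not call it.

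The mismatch repair genes overlapped between groups, and 0 of 3 passed in edgeR. Msh6, whose product recognises mispaired bases, stood at 129, 165, 149 and 239 CPM in Control and at 128, 184 and 198 CPM in Dnmt1cKO. The groups overlapped almost wholly and the log2 fold change was 0.07 ± 0.42 (edgeR adjusted p = 0.954), with a 95% interval of -0.79 to 0.93. Its sign turned with RLE factors (-0.50). Pms2, which nicks the strand to be corrected, had the smallest p of the group and stood at 13.5, 27.3, 0.754 and 0 CPM in Control. In Dnmt1cKO it was at 0.449, 17.97 and 40.2 CPM, with both groups spanning nearly empty to well expressed. The log2 fold change was 0.82 ± 1.07 (edgeR adjusted p = 0.743), and that of Msh3, which recognises longer loops, was 0.11.

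Nucleotide excision repair removes bulky and ultraviolet lesions: Xpc and the Ddb1 and Ddb2 pair find them, Ercc2 and Ercc3 unwind the helix, Xpa checks it, and Ercc5 and the Ercc1 and Ercc4 pair cut it. Of its 9 genes, 5 had log2 fold changes above 0 (55.6%, beside 57.3% of all genes tested) and 4 below. In edgeR 0 passed, with 0 at an unadjusted p under 0.05. Ddb1 (chromosome 19, 10605327 to 10629819), also the adaptor of a ubiquitin ligase, stood at 464, 560, 693 and 992 CPM in Control, and at 355, 578 and 719 CPM in Dnmt1cKO. The groups overlapped, with the library labelled Control 4 highest. Its log2 fold change of -0.27 ± 0.34 (edgeR adjusted p = 0.730, 95% interval -0.96 to 0.42) had the smallest standard error of the members, and was 0.05 without the library labelled Control 4 and 0.09 with library totals alone.

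Ercc3, a helicase of the transcription factor TFIIH, had the smallest p of the route and stood at 32.1, 60.4, 377 and 0 CPM in Control. In Dnmt1cKO it was at 9.70, 51.9 and 66.8 CPM. Control 3 alone stood above the Dnmt1cKO range, and the log2 fold change of -1.32 ± 0.73 (edgeR adjusted p = 0.359) became 0.55 without it. Xpc, which is also known as a p53 target, stood at 51.5, 102, 79.2 and 353 CPM in Control and at 45.6, 76.3 and 131 CPM in Dnmt1cKO. Again 1 Control stood apart, the library labelled Control 4, and the log2 fold change of -0.82 ± 0.55 (edgeR adjusted p = 0.470) was 0.16 without it. Ddb2, known as a p53 target in human cells, stood at 10.6, 0, 0.754 and 0 CPM in Control and at 0, 4.33 and 15.4 CPM in Dnmt1cKO. Its log2 fold change was 0.94 ± 1.46 (edgeR adjusted p = 0.791). Without Control 1, which leaves 1 Control count, it was 4.43 (adjusted p = 0.182). The log2 fold changes of the nucleases Ercc5, Ercc4 and Ercc1 were 1.45, 1.08 and 0.17, that of the helicase gene Ercc2 0.91 and that of Xpa -0.37.

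Base excision and single-strand break repair held 3 of the 5 members with an unadjusted p under 0.05, and they pointed in different directions. PARP1 and PARP2 bind nicks and build chains of ADP-ribose that bring in XRCC1, the scaffold on which LIG3 seals the gap. Parp1 (chromosome 1, 180568924 to 180601254) stood at 326, 264, 382 and 54.0 CPM in Control and at 549, 506, 507, 491, 581, 553, 520 and 234 CPM in Dnmt1cKO. Dnmt1cKO 1 to 7 lay within 491 to 581 CPM, above every Control, and Dnmt1cKO 8 below all but the library labelled Control 4. The mean was 493 ± 108 CPM (SD, n = 8) against 257 ± 143 CPM (SD, n = 4), 1.91-fold higher with a 95% interval of 1.05 to 3.47, and did not pass after adjustment (edgeR adjusted p = 0.239). The fitted log2 fold change of 0.93 ± 0.43 was 0.68 without the library labelled Control 4 and 0.80 without it and Control 3.

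Parp2 (chromosome 14, 50807841 to 50821301), the close relative of Parp1, had the smallest adjusted p of the 41 members and pointed the other way. It stood at 49.7, 79.2, 81.4 and 492 CPM in Control and at 28.5, 9.43, 42.0, 62.0, 50.8, 56.4, 53.6 and 60.8 CPM in Dnmt1cKO. The library labelled Control 4 stood far above all others, Controls 2 and 3 above every Dnmt1cKO library, and Control 1 inside their range. The log2 fold change was -1.93 ± 0.60 (edgeR adjusted p = 0.0773), and -0.55 (adjusted p = 0.669) without the library labelled Control 4. Without Control 1, Control 2 or Control 3, which leaves that library in, edgeR called Parp2 (adjusted p = 0.0299, 0.0496 and 0.0367), where it called 8.75%, 3.95% and 3.27% of all genes. Without the library labelled Control 4 it called 0 members and 0.719% of all genes, and without it and Control 3 0 members and 0.336%. Xrcc1 (chromosome 7, 24546289 to 24573440) showed the same arrangement, with 22.4, 48.9, 59.6 and 353 CPM in Control. In Dnmt1cKO it was at 0, 28.9 and 34.9 CPM, the 0 being Dnmt1cKO 2. Its log2 fold change of -2.26 ± 0.79 (edgeR adjusted p = 0.119) was -0.72 (adjusted p = 0.749) without the library labelled Control 4.

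The other genes of this route overlapped between groups. Apex1, which cuts DNA where a base has been removed, stood at 93.7, 115, 231 and 0 CPM in Control and at 82.4, 120 and 167 CPM in Dnmt1cKO (log2 fold change 0.03). Lig3 had a log2 fold change of 0.58. Ung, which removes uracil, had -0.85, or -0.29 without the library labelled Control 4. Ogg1, which removes oxidised guanine, stood at 0 to 3.03 CPM in Control and at 0 to 24.8 CPM in Dnmt1cKO, Dnmt1cKO 8 being the highest, and had a log2 fold change of 1.96 ± 1.51 (edgeR adjusted p = 0.539).

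**Figure D4:**
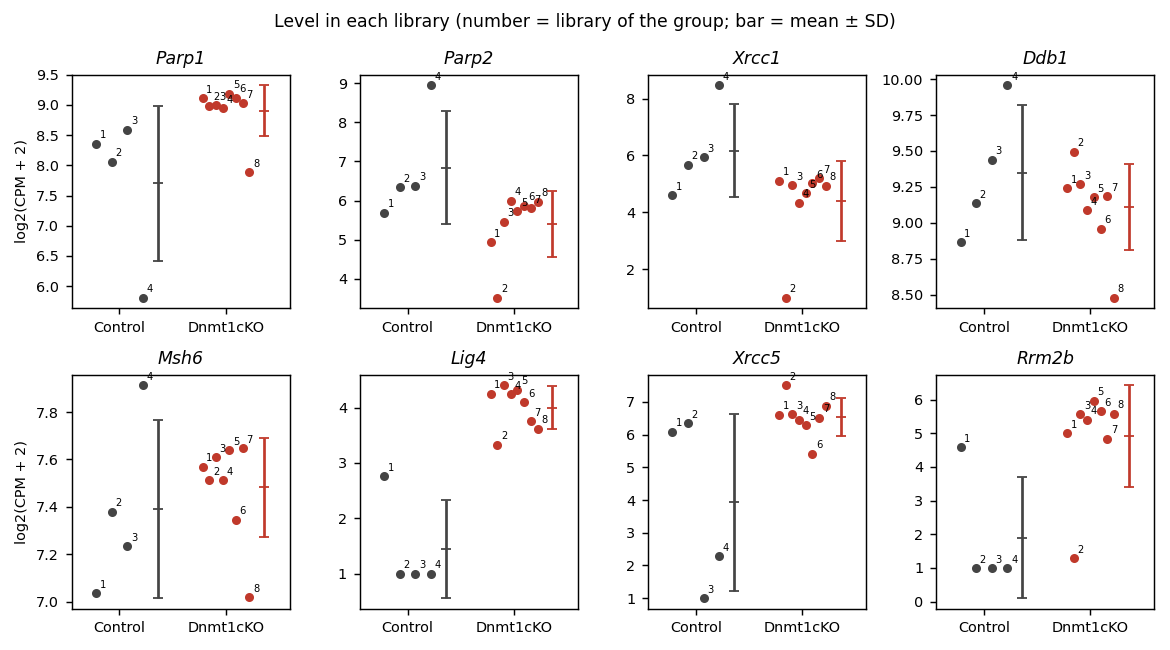
Level of 8 members in each library (y axis, log2 of CPM plus 2) by group (x axis). Each numbered point is a library of the group and bars give the mean ± SD of the logged levels (n = 4 Control, n = 8 Dnmt1cKO). The library labelled Control 4 is highest for Parp2 and Xrcc1 and lowest for Parp1, and all Dnmt1cKO libraries lie above all Controls for Lig4.

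Rrm2b, Polk and Mgmt stand outside these routes. Rrm2b (chromosome 15, 37923952 to 37961318, minus strand) encodes the p53-inducible subunit of ribonucleotide reductase, which supplies building blocks for repair. It gave 179 counts in Control 1, 22.01 CPM, and 0 in the other 3 Controls, where the level of Control 1 predicted 65.3, 29.2 and 7.74 counts. In Dnmt1cKO it stood at 30.1, 0.449, 45.2, 40.3, 60.7, 48.5, 26.6 and 45.9 CPM. All but Dnmt1cKO 2 lay above Control 1, and Dnmt1cKO 2 lay below it. The fitted log2 fold change was 2.58 ± 1.18 (edgeR adjusted p = 0.242, 95% interval 0.18 to 4.98). It was 1.78 (adjusted p = 0.650) without Control 3 and the library labelled Control 4. Without Control 1, the only Control with counts, edgeR called Rrm2b (adjusted p = 0.0104), where it called 8.75% of all genes. The remaining Controls are then all at 0, so no fold change can be read from that fit.

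Polk, a polymerase that copies past damaged bases and a p53 target in mouse, stood at 19.4, 0, 3.77 and 0 CPM in Control and at 5.52, 22.6 and 37.3 CPM in Dnmt1cKO. Control 1 lay inside the Dnmt1cKO range, below 6 of its 8 libraries. The log2 fold change was 1.76 ± 1.12 (edgeR adjusted p = 0.444), and 3.95 (adjusted p = 0.0739) without Control 1. Mgmt, whose pair of promoter windows is printed above, stood at 5.78, 19.2, 0.754 and 0 CPM in Control. In Dnmt1cKO it stood at 0.073, 0, 2.54, 5.78, 0, 2.70, 7.19 and 18.5 CPM. Both groups ran from 0 to above 18 CPM, and the log2 fold change of -0.56 ± 1.42 (edgeR adjusted p = 0.879) was 0.86 without Control 2. Among the genes named here as p53 targets, which for Ddb2 is known in human cells, 0 of 4 passed in edgeR. Rrm2b, Polk and Ddb2 had log2 fold changes above 0 and Xpc one below 0.

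The sample descriptions carry a number code whose meaning the labels do not state, and codes 4, 5, 6 and 7 occur in both groups, with 1 Control in each. Dnmt1cKO exceeded the Control of its code for 23, 20, 25 and 34 of the 41 members (56.1%, 48.8%, 61.0% and 82.9%), beside 48.5%, 56.0%, 64.7% and 78.4% of all genes tested. The members' shares lay near those of the whole table in each code. For code 4, with Control 1, the members' median difference on the log2(CPM + 2) scale was 0.18, beside -0.03 for all genes tested. For codes 5 and 6 it was lower than that of all genes tested, at -0.04 and 0.40 beside 0.18 and 1.01. For code 7, where the Control is the library labelled Control 4, it was 2.82, beside 1.83 for all genes tested. In all of the codes 7 members were higher (17.1%, beside 18.2% of all genes): Parp1, Lig4, Rrm2b, Polk, Xrcc5, Xrcc6 and Ercc4. In none of them were Parp2 and Ung higher (4.88%, beside 4.15%). Parp1 differed by 0.63, 0.89, 0.60 and 2.87 in codes 4 to 7, and Parp2 by -0.23, -0.34, -0.66 and -3.07.

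Against Control 1 alone, the one deep Control, most members did not stand apart. Its level lay inside the range of the 8 Dnmt1cKO libraries for 32 of 41 members (78.0%), beside 78.6% of all genes tested. It was above the range for Rad50, Chek2, Ercc2, Xrcc3 and Xrcc4, and below it for Lig4, Lig3, Fanci and Fancd2, which is 12.2% and 9.76% of members beside 12.6% and 8.87% of genes. Chek2, the checkpoint kinase downstream of ATM, stood at 53.7 CPM in Control 1 against 15.5 to 39.4 CPM in Dnmt1cKO, and at 5.69 to 11.5 CPM in the other Controls. Within Dnmt1cKO the members varied by a median coefficient of variation of 40.6%, and within Control by 121% (all genes 51.8% and 115%). Among Dnmt1cKO libraries Trp53bp1, Msh6, Rad50 and Atr varied least, by 12.03%, 13.3%, 14.2% and 15.97%, and Mgmt, Ogg1, Xrcc3, Fanca and Ddb2 most, by 101% to 136%.

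Levels per length ordered the members in much the same way in Control 1 and in Dnmt1cKO. Length was that of all annotated exons of a gene merged (23.6 kb for Atr), not that of a single transcript. The order of genes thus depends in part on the annotation. Per kilobase of annotated exon, Parp1, Ddb1 and Apex1 were highest in Dnmt1cKO, at 93.1 ± 20.5, 87.5 ± 16.4 and 79.8 ± 20.6 CPM per kb (SD, n = 8), and did not differ among themselves beyond that spread. In Control 1 they held the same top places, at 61.6, 72.3 and 65.9 CPM per kb. Msh6 and Xrcc5 followed, at 41.04 ± 5.47 and 38.2 ± 15.5 CPM per kb in Dnmt1cKO. Their products sense nicks, recognise lesions and mismatches, cut at missing bases and cap ends. At the lower end stood Xrcc3, at 0.506 ± 0.581 CPM per kb, Brca2 at 1.59 ± 0.361 and Mgmt at 1.59 ± 2.16, and the last pair did not differ beyond their spread. Fancd2 and Lig4 held the lowest places in Control 1 (0.465 and 0.922 CPM per kb) and stood at 2.36 ± 1.58 and 2.79 ± 0.777 in Dnmt1cKO.

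**Figure D5:**
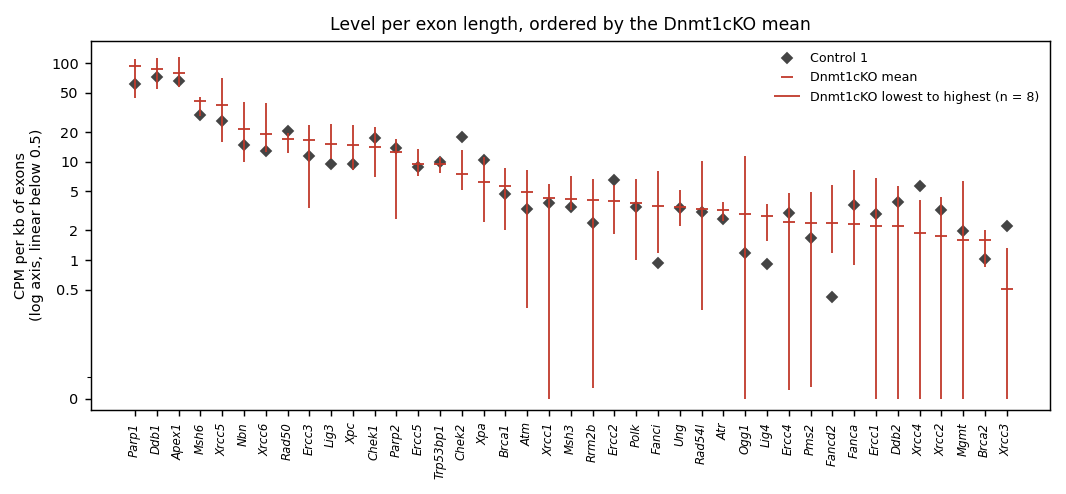
Level per kilobase of annotated exon (y axis, log scale, linear below 0.5) for each member (x axis, ordered by the Dnmt1cKO mean). Dashes give the Dnmt1cKO mean, lines its lowest to highest library (n = 8) and diamonds Control 1, which lies inside the lines for 32 of 41 members.

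A further 82 genes of the same pathways were examined as a list. Of the 80 tested, 0 were called higher and 2 lower in edgeR, beside 1.03% and 1.55% of all genes. Before adjustment 5 of 80 were higher and 8 lower, beside 8.19% and 9.54% of all genes. Their median log2 fold change was 0.30, and 48 of 80 (60.0%) were above 0. The 2 called were Lig1, the ligase of replication and long-patch base excision repair, and Mus81, a nuclease for branched DNA, and the library labelled Control 4 was highest for both. Mus81 was 12.7-fold lower (log2 fold change -3.67 ± 0.95, edgeR adjusted p = 0.0324), with 128 ± 239 CPM (SD, n = 4) in Control and 9.95 ± 8.38 CPM (SD, n = 8) in Dnmt1cKO. Without the library labelled Control 4 its log2 fold change was 0.16 (adjusted p = 0.968). Lig1 was 5.38-fold lower (edgeR adjusted p = 0.00214), and without that library 2.09-fold (adjusted p = 0.122). Without it and Control 3, Lig1 was 1.47-fold lower (adjusted p = 0.573). Lig1 stood at 127, 326, 522 and 2195 CPM in Controls 1 to 4 and at 132 to 159 CPM in Dnmt1cKO. Control 1 thus lay below every Dnmt1cKO library and the other Controls above them.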

How the data were processed

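The authors deposited expected counts (estimated counts) per gene symbol for 12 libraries. Per the submitters' processing notes, RSEM 1.2.3 and Bowtie 0.12.9 were used on mm10, after bcl2fastq 2.17.1.14. Neither annotation nor strand use was stated (not given in the sources used here). Overlapping genes are therefore uncertain. Groups came from the sample titles. The 41 members, the other lists, the tests and the rule for named genes (per role, the smallest p and the highest mean CPM, with Ddb2, Xpc, Rrm2b, Polk and Mgmt) were chosen with earlier results of these data known. Atm, Chek2, Brca1, Xrcc4, Xrcc6, Xrcc1, Apex1 and Ogg1 were detailed outside that rule, after their values were seen.

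Counts were rounded and fitted on genotype alone in edgeR 4.0.16 (R 4.3.3), using TMM factors, robust quasi-likelihood and filterByExpr (minimum count 10, minimum total 15). P-values were adjusted over all 12761 genes, and an adjusted p under 0.05 was called. CPM used TMM-scaled totals. Intervals of fold changes are 95% intervals from the fit. DESeq2 1.42.0 and limma 3.58.1 were alternatives. Tested on simulated data, all 3 tools found planted 4-fold changes when the spread was small. At a spread close to that of these libraries edgeR called none of them, limma-voom almost none, and DESeq2 few, with about as many false calls as true ones. An absent edgeR call therefore says little here, and a DESeq2 call alone is weak. Gene positions and exon lengths are GENCODE M21 (GRCm38, the mm10 build), and promoters are RefSeq on GRCm38.p6. No pair of libraries in a group agreed within sampling noise (lowest chi-square per degree of freedom 28.1). No molecular identifiers are mentioned, so counts are of reads.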

Additional observations from a re-analysis of the deposited data

Results flagged for a closer look

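In 40 sets of libraries (19 named members and the members' share of counts, each in both groups), the highest or lowest library was checked for a gap to its neighbour that was large for the group's range. There were 10 such gaps. Chance gives about 1 in 20 sets where values are independent and normal, which these are not: 8 of the 10 came from 2 libraries. In Control both came from Control 1, the one Control with counts for Lig4 (4.79 CPM) and for Rrm2b (22.01 CPM), and the zeros of the others fixed them. Dnmt1cKO 8 stood low for Parp1 (234 CPM), Ercc3 (9.70 CPM), Rad50 (65.3 CPM) and for the members' share of all counts (0.218%). Dnmt1cKO 2 stood low for Rrm2b (0.449 CPM), Pms2 (0.449 CPM) and Parp2 (9.43 CPM), and high for Fanca (71.6 CPM). Dnmt1cKO 2 and 8 have the fewest counts of their group, 4007533 and 4009772. The part of depth in these values was not tested.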

How the results depend on the processing

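With RLE factors 2 members were called, 2 lower, and with DESeq2 3 (1 higher, 2 lower). Leaving out 1 library at a time gave 0 to 3 calls (0 to 2 higher, 0 to 1 lower): Lig4, Rrm2b and Parp2 without Control 1 and Parp2 without Control 2 or Control 3. Calls over all genes moved too, from 132 higher and 198 lower to 170 and 726 under RLE factors, 113 and 47 when only totals were used, 487 and 1030 with DESeq2, 8 and 31 with limma-voom, 60 and 36 without the library labelled Control 4, and 45 and 2 without it and Control 3. The members' median log2 fold change was 0.38 with limma-voom and 0.11 to 0.52 with 1 library left out. With a replicate block by code it was 1.299, beside 1.09 for all genes, and 0 members were called, where 1.62% of all genes were. The code was not used as a pairing in the main fit, because the labels do not state its meaning. Deviations from the group mean correlated at -0.046 to 0.054 between Controls and Dnmt1cKO libraries of the same code. With so few pairs of such noisy libraries, these values cannot show whether the code marks a batch. Libraries of different codes, and same-coded libraries within Dnmt1cKO, were not compared in this way. Over all genes the median moved from 0.22 to 0.07 under RLE factors and to 0.38 under totals.

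Signs turned for some named members. With RLE factors and DESeq2, Msh6 was at -0.50 and -0.48. With library totals, Rad50 was at 0.018 and Ddb1 at 0.090. With limma-voom, Chek1 was at -0.16, Rad50 at 0.076, Ercc3 at 0.37, Ddb1 at 0.13 and Xpc at 0.24. With the replicate block, Rad50 was at 0.45 and Ercc3 at 0.44. Without Control 3 and the library labelled Control 4, Chek1 was at -0.31, Rad50 at 0.049, Ercc3 at 0.11, Ddb1 at 0.20 and Xpc at 0.17. With 1 library left out, the ranges were -0.039 to 0.35 for Msh6, -1.30 to 0.86 for Mgmt, -0.52 to 0.51 for Rad50, -1.38 to 0.19 for Fanca, -1.63 to 0.55 for Ercc3, -0.41 to 0.048 for Ddb1 and -1.11 to 0.16 for Xpc. The cause was not tested. In the library labelled Control 4, 1 count is 2.84 CPM, which limits what can be read of low members there.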
